A study of Mus musculus with 10 samples.

Results

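Liver expression of matBFMI, F1 males born to BFMI mothers and sired by B6N males, was compared with that of the inbred maternal strain BFMI. The comparison covered 3 matBFMI libraries and 2 BFMI libraries, of 10 libraries in all. Its members are the 16999 autosomal genes that reached 10 counts in 2 or more of these 5 libraries, of 41388 genes in the count table. The series sequenced liver RNA of mice aged 10 weeks from a reciprocal cross, and asked how the obese parent affects gene expression in the F1 offspring. BFMI, short for Berlin Fat Mouse Inbred line, was the substrain BFMI860-12/Hber, which becomes obese early in life, and was represented by 1 male and 1 female. B6N is the lean strain C57BL/6NCrl, and also gave 1 male and 1 female. The matBFMI animals were 3 males from different BFMI mothers mated with B6N males, and the reciprocal patBFMI animals were 3 males from B6N mothers mated with BFMI males. All animals of the comparison received their X chromosome and their mitochondria from BFMI, and matBFMI males also carried a B6N copy of every autosome and the B6N Y chromosome. F1 animals ate a high fat diet from weaning, whereas the sources differ on the inbred animals: the design text and the methods of the study say that those sequenced were raised on high fat food, and the sample records give breeding food for animals of the parental strains. The part of diet was not tested.

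Most hepatocyte genes are read from both parental copies, and a hybrid liver therefore mixes the regulatory variants of both strains. Hepatocytes build fatty acids and cholesterol under the SREBP transcription factors, store triglyceride in lipid droplets and burn fatty acids in mitochondria and peroxisomes. The same cells secrete acute phase proteins when cytokines reach them, and run a circadian clock in which Arntl and Clock drive the Per genes and the Dbp family, whose proteins in turn act on metabolic genes.

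Assigned reads numbered 96023811 in the BFMI male, 50979788 in its female counterpart and 51596405 to 56457087 in matBFMI. The markers of hepatocytes were high throughout, with Alb, the gene of serum albumin, at 46627, 51695 and 48281 CPM in matBFMI and 47778 and 69149 CPM in the BFMI male and female. The libraries differed in their low counts: 14190 and 12814 genes had 1 to 9 counts in the BFMI male and female, against 10018, 6345 and 6090 in matBFMI 1, 2 and 3. A group of 13 predicted genes summed to 15565 and 23156 CPM in the BFMI male and female, but to 5610, 202 and 76.6 CPM in matBFMI. The median log2 fold change was -0.19 in the 4492 genes with a mean under 1 CPM and 0.07 in the 1093 genes above 100 CPM. Of the genes under 1 CPM, 28 were called higher and 34 lower in matBFMI. Whether the values of weakly expressed genes follow the low counts of the single libraries was not tested, nor was the part of this in their calls. The BFMI male was sequenced on lane 1, the BFMI female on lane 4 and all matBFMI libraries on lane 6, so that lane and group cannot be told apart.

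Of the 16999 autosomal genes, 665 (3.91%) passed the threshold of 0.05 on adjusted p in the quasi-likelihood test of edgeR, with sex as a term. The test called 352 genes higher (2.07%) and 313 lower (1.84%) in matBFMI than in BFMI. Values are given as CPM, counts per 1000000 reads after TMM scaling, and a positive log2 fold change means more in matBFMI than in BFMI. The called genes had a median absolute log2 fold change of 1.08, and 111 of them changed by at least 2 on the log2 scale, 65 upward and 46 downward. Most called genes (589) were protein coding, and 51 were pseudogenes. In 626 of the 665 genes every matBFMI library lay on the same side of both BFMI libraries. Such separation alone was frequent: all 3 matBFMI libraries lay above both BFMI libraries in 19.5% of the autosomal genes and below both in 20.5%. The median log2 fold change of all autosomal genes was 0.00, and 49.5% of them had a positive value. The share of genes called lay between 2.73% on chromosome 15 and 5.44% on chromosome 1. Females differed from males in 102 autosomal genes (0.6%) in the same fit, and 28 of the 665 genes were among these.

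Most calls ended without the BFMI male, the only inbred male of the strain. Without it 33 genes were higher and 18 lower, of which 32 were among the 665, whereas without the BFMI female 359 were higher and 441 lower and 539 of the 665 were among these. Without matBFMI 1, 2 or 3 the fit called 229, 186 or 174 genes higher and 164, 98 or 124 lower. Without the BFMI male the value of BFMI males came from the BFMI female and a sex term estimated in B6N alone. In that fit 658 of the 665 genes had the same sign and 249 an absolute log2 fold change at least as large. The median in the direction of the call went from 1.08 to 0.92. Both fits share all the other libraries, and the 665 genes were chosen with them, so that kept signs are no support for the calls. The values of both BFMI animals are given below for the genes described in most detail.

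**Figure D1:**
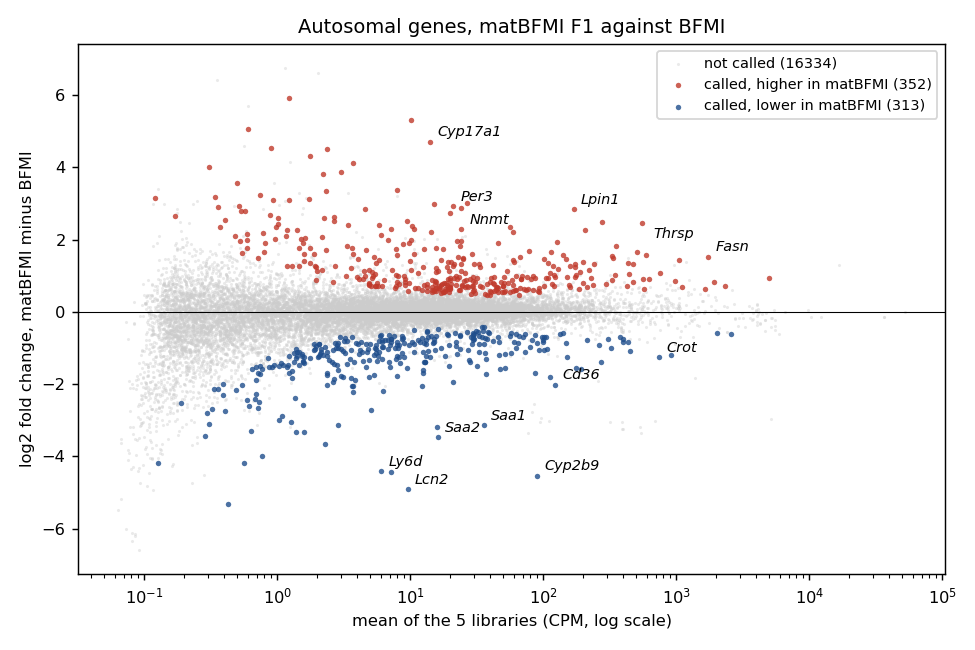
Log2 fold change of matBFMI over BFMI (vertical axis) against the mean of the 5 libraries in CPM (horizontal axis, log scale) for the 16999 autosomal genes tested. Red points are the 352 genes called higher and blue points the 313 called lower, and grey points did not pass; the weakly expressed genes on the left spread further below 0 than above it.

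Among named protein-coding genes, Cyp17a1 rose most. Cyp17a1 encodes the steroid 17-hydroxylase and lies at chr19:46667165-46673172 on the minus strand. It was at 20.02, 22.7 and 22.2 CPM in matBFMI, 0.701 CPM in the BFMI male and 5.16 CPM in the BFMI female (log2 fold change 4.71, standard error 0.294, adjusted p = 7.06e-05). No library of one group reached the other, and B6N, with 27.1 CPM in the B6N male and 129 CPM in the B6N female, lay above BFMI as well. Cyp17a1 was also higher in females than in males in this fit (log2 difference 2.50, adjusted p = 0.00178). Adgrf1, an adhesion G protein-coupled receptor, was at 4.80, 5.54 and 7.56 CPM in matBFMI and at 0.210 and 0.567 CPM in the BFMI male and female (log2 fold change 4.13, standard error 0.404, adjusted p = 0.000717). Its levels were higher still in B6N, with 27.03 CPM in the B6N male and 21.4 CPM in the B6N female. Nnmt, which methylates nicotinamide, was at 46.2, 33.04 and 26.5 CPM in matBFMI, 4.53 CPM in the BFMI male and 10.02 CPM in the BFMI female (log2 fold change 2.89, standard error 0.271, adjusted p = 0.000602). The glycosyltransferase Glt1d1 reached 14.6, 12.7 and 13.9 CPM in matBFMI and 2.83 and 2.97 CPM in the BFMI animals (log2 fold change 2.52, standard error 0.278, adjusted p = 0.00160). Fabp5, a fatty acid binding protein, was at 20.6, 24.7 and 41.4 CPM against 2.59 and 10.7 CPM (log2 fold change 2.73, standard error 0.590, adjusted p = 0.0338), and was highest in B6N with 140.2 CPM in the B6N male and 117 CPM in the B6N female. For these 5 genes the F1 males thus lay above both BFMI animals, and the calls of Cyp17a1, Adgrf1 and Glt1d1 held without the BFMI male. The 12 with the largest rise also held Dbp, Per3, Usp2, Cish, Lpin1 and Thrsp, which belong to the groups described below.

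Lcn2 fell most among named genes. Lcn2 encodes lipocalin 2, an iron-scavenging acute phase protein, and lies at chr2:32384633-32388252 on the minus strand. It was at 1.15, 0.581 and 0.692 CPM in matBFMI, but 34.7 CPM in the BFMI male and 10.5 CPM in the BFMI female (log2 fold change -4.91, standard error 0.567, adjusted p = 0.00199). The BFMI male stood far above every other library, and patBFMI and the B6N male had 0.75 to 1.55 CPM. Ly6d, a lymphocyte antigen 6 family member, showed the same order, with 1.23, 0.564 and 0.711 CPM in matBFMI and 22.8 and 4.81 CPM in the BFMI male and female (log2 fold change -4.40, standard error 0.568, adjusted p = 0.00345). Cdkn1a, the cell cycle inhibitor p21, was at 0.484, 0.547 and 0.299 CPM in matBFMI against 7.71 and 2.42 CPM (log2 fold change -3.65, standard error 0.514, adjusted p = 0.00567). Mtnr1a, the melatonin receptor at chr8:45069137-45088506, fell from 13.2 and 5.06 CPM in the BFMI male and female to 2.03, 2.39 and 2.64 CPM in matBFMI (log2 fold change -2.71, standard error 0.242, adjusted p = 0.000426). The calls of Mtnr1a and Cyp17a1 held under each of the 17 alternative settings, which was the case for 3 of the 24 genes with the largest changes. Sema5b, a semaphorin, was at 3.43, 2.62 and 2.94 CPM in matBFMI and 12.2 and 9.98 CPM in BFMI (log2 fold change -2.17, adjusted p = 0.0163). Of the 24 genes, 18 were no longer called without the BFMI male. Cyp17a1, Adgrf1, Glt1d1, Marco and Mtnr1a were among the 6 that were called.

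Sterol genes rose together. Of the 22 tested genes of cholesterol synthesis and uptake, 10 were higher and 0 lower in matBFMI, that is 45.5% higher where 2.07% of all autosomal genes were. The values of all 22 were positive, and their median log2 fold change was 0.91 where that of all autosomal genes was 0.00. In 18 of the 22 all matBFMI libraries lay above both BFMI libraries, as they did in 19.5% of all autosomal genes. Fdps makes farnesyl diphosphate, from which sterols are built, and lies at chr3:89093588-89101959. It was at 192, 195 and 283 CPM in matBFMI, 85.98 CPM in the BFMI male and 115 CPM in the BFMI female (log2 fold change 1.33, standard error 0.251, adjusted p = 0.0199). Levels in patBFMI were 150.4, 227 and 172 CPM, and 87.5 CPM in the B6N male and 104 CPM in the B6N female. Lss, which closes the sterol ring system, was at 115, 115 and 169.9 CPM against 63.3 and 96.7 CPM in the BFMI male and female (log2 fold change 1.07, standard error 0.217, adjusted p = 0.0262). Fdft1, the squalene synthase, was at 91.4, 91.9 and 118 CPM against 55.3 and 64.2 CPM (log2 fold change 0.98, standard error 0.225, adjusted p = 0.0412). In these 3 genes every matBFMI male lay above both BFMI animals. The enzymes Msmo1, Pmvk and Sc5d rose too, by 0.90 for Sc5d to 0.95 for Msmo1 on the log2 scale, and Stard4, a sterol carrier, rose as well (log2 fold change 1.01, adjusted p = 0.0272). Most of the 10 calls ended without the BFMI male, those of Fdps, Lss and Fdft1 among them. The log2 fold changes of these 3 genes were then 1.20, 1.05 and 1.39.

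Fatty acid synthesis genes were higher as well. In the lipogenesis list 7 of 26 genes were higher and 1 lower (26.9% and 3.85%, where 2.07% and 1.84% of all autosomal genes were). The median log2 fold change was 0.88, and 24 had a positive value. Thrsp, a regulator of lipogenesis known as Spot 14, was at 689, 678 and 947 CPM in matBFMI, 149 CPM in the BFMI male and 304 CPM in the BFMI female (log2 fold change 2.45, standard error 0.415, adjusted p = 0.0127). Fasn, the fatty acid synthase, was at 1859.9, 2216 and 2591 CPM in matBFMI, 853 CPM in the BFMI male and 1124 CPM in the BFMI female (log2 fold change 1.53, standard error 0.285, adjusted p = 0.0190). Both genes were higher in each matBFMI male than in any of the other 7 livers. Acacb, an acetyl-CoA carboxylase, reached 336, 425 and 606 CPM against 119 and 269.7 CPM (log2 fold change 1.81, standard error 0.311, adjusted p = 0.0136), with the BFMI female far closer to matBFMI than the BFMI male. Acss2, which makes acetyl-CoA from acetate, was at 460.3, 559.9 and 842 CPM in matBFMI and 172 and 491 CPM in the BFMI male and female (log2 fold change 1.65, adjusted p = 0.0251), so that the groups overlapped. Srebf1, the transcription factor that drives these genes, was at 200.3, 186 and 283 CPM against 103 and 175 CPM (log2 fold change 1.09, standard error 0.205, adjusted p = 0.0197). Aacs and Insig1 also rose, with log2 fold changes of 1.45 and 1.31. The gene that fell was Insig2, whose protein holds SREBP in the endoplasmic reticulum, with 285, 399 and 282 CPM in matBFMI and 652 and 623 CPM in BFMI (log2 fold change -1.08, standard error 0.216, adjusted p = 0.0252). No member of this list was called without the BFMI male. The log2 fold changes of Thrsp, Fasn, Insig1 and Insig2 were then 2.71, 2.00, 1.99 and -1.26. Those of Acacb, Aacs, Acss2 and Srebf1 were smaller than before, at 1.44, 1.43, 1.08 and 1.01. Without matBFMI 2 or 3 the number higher was 3 or 4.

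**Figure D2:**
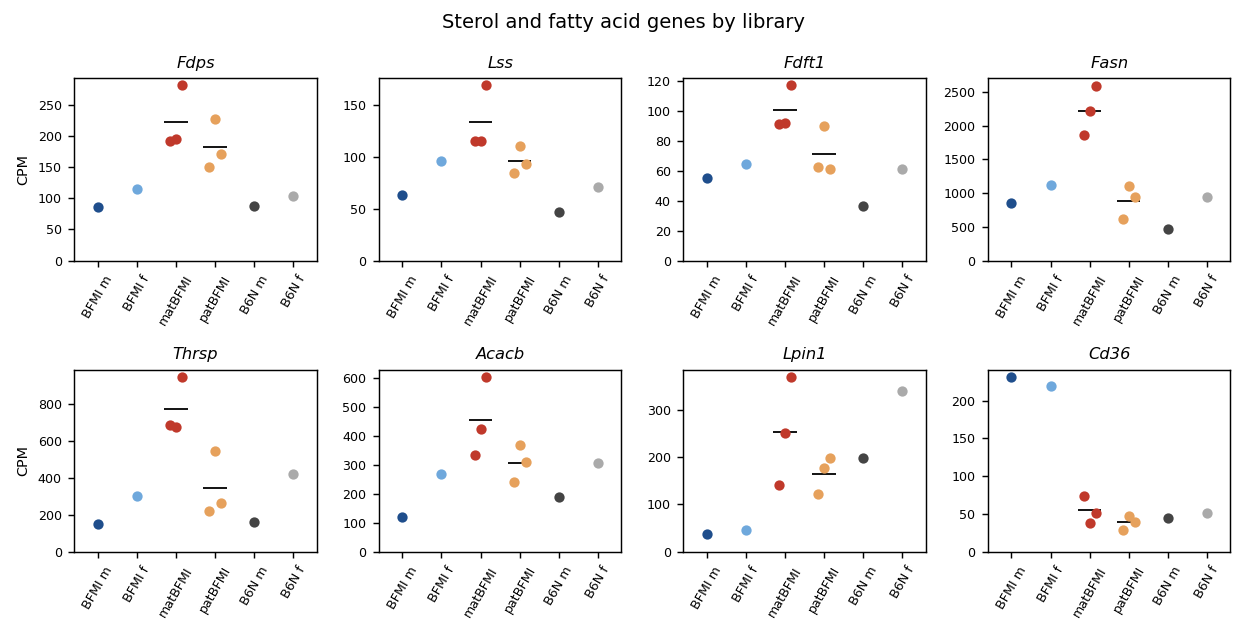
Expression in CPM (vertical axes, starting at 0) of 8 sterol, fatty acid and triglyceride genes in each of the 10 libraries. Points are single animals and black lines the means of 3 F1 males; Thrsp and Fasn are higher in the matBFMI males than in the other libraries, whereas Cd36 is high in BFMI only.

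Genes of triglyceride storage moved in both directions. Of 29 genes, 4 were higher and 3 lower, with a median log2 fold change of -0.19. These were 13.8% and 10.3%, where 2.07% and 1.84% of all autosomal genes were called. Lpin1, the phosphatidate phosphatase lipin 1, was at 139.9, 251 and 368 CPM in matBFMI, 38.1 CPM in the BFMI male and 46.97 CPM in the BFMI female (log2 fold change 2.84, standard error 0.425, adjusted p = 0.00717). Its paralog Lpin2 was at 502, 516 and 658 CPM against 233 and 256 CPM (log2 fold change 1.34, standard error 0.177, adjusted p = 0.00382). Gpam, the first enzyme of glycerolipid synthesis, and Dgat2, the last, rose by 1.06 and 0.73 on the log2 scale (adjusted p = 0.0404 and 0.0237). In contrast Cd36, the fatty acid translocase, was at 73.8, 38.5 and 51.8 CPM in matBFMI, 231 CPM in the BFMI male and 219.6 CPM in the BFMI female (log2 fold change -2.02, standard error 0.282, adjusted p = 0.00550). The BFMI animals were alone at this level, since patBFMI had 28.9, 47.8 and 39.6 CPM and the B6N animals 44.6 and 50.7 CPM. The droplet protein Plin5 and the fatty acid binding protein Fabp4 fell by 0.89 and 1.01 on the log2 scale. None of the 7 was called without the BFMI male, when the log2 fold changes of Lpin1, Cd36 and Fabp4 were 3.20, -1.82 and -0.38.

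Of the genes that oxidize fatty acids few were called. None of the 26 genes of mitochondrial beta-oxidation and ketogenesis passed the test in edgeR, although 2 were lower by DESeq2 and by limma-voom. At an unadjusted p under 0.05, 7 of the 26 were lower, as were 1577 of all 16999 autosomal genes. A negative value was found in 21 of the 26, with a median log2 fold change of -0.17. In 10 all matBFMI libraries lay below both BFMI libraries, as in 20.5% of autosomal genes. The 26 summed to 7046.1 to 7660.5 CPM in matBFMI, 8730 CPM in the BFMI male and 8204 CPM in the BFMI female. Acadm, a medium-chain dehydrogenase, had 306, 272 and 258 CPM in matBFMI and 387 and 393 CPM in BFMI (log2 fold change -0.57, adjusted p = 0.0820). Of 34 genes of peroxisomal oxidation, Crot fell and Nudt19 rose (2.94% in each direction). These shares were near the 1.84% lower and 2.07% higher of all autosomal genes. Crot, which moves medium-chain acyl groups out of peroxisomes, was at 536, 546 and 439.6 CPM in matBFMI, 1171 CPM in the BFMI male and 1014 CPM in the BFMI female (log2 fold change -1.25, standard error 0.155, adjusted p = 0.00302). Por, the electron donor of the cytochromes P450, and Cyp4f14 rose among 13 genes of omega-hydroxylation (15.4%). Por was at 165, 130.1 and 212 CPM against 46.000 and 78.6 CPM (log2 fold change 1.93, standard error 0.287, adjusted p = 0.00706). Among 25 targets of PPAR alpha and fasting, Cd36 and Fgf21 were lower (8%). Fgf21, a liver hormone, was at 3.95, 4.53 and 7.32 CPM in matBFMI and 13.7 and 5.45 CPM in the BFMI male and female (log2 fold change -1.53, adjusted p = 0.0241), so that the BFMI female lay within the range of matBFMI. All these calls ended without the BFMI male, whereas the log2 fold changes were then 2.103 for Por, -1.37 for Crot, -2.04 for Fgf21, 0.93 for Cyp4f14 and 0.67 for Nudt19. Cyp4a members of the omega-hydroxylation list did not pass.

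Genes of amino acid breakdown were called in 1 direction. Of 34 genes 8 were higher and 0 lower (23.5% higher, where 2.07% of all autosomal genes were higher and 1.84% lower). The median log2 fold change was 0.51, and 30 had a positive value. Cth, which makes cysteine, was at 205, 178 and 169.9 CPM in matBFMI, 60.2 CPM in the BFMI male and 95.5 CPM in the BFMI female (log2 fold change 1.56, standard error 0.182, adjusted p = 0.00210). Prodh, the proline dehydrogenase, was at 134, 131 and 169.97 CPM against 55.1 and 105 CPM (log2 fold change 1.27, standard error 0.184, adjusted p = 0.00651). Cps1, the entry enzyme of the urea cycle, was at 5499, 5993 and 5454 CPM in matBFMI, 2536 CPM in the BFMI male and 5398 CPM in the BFMI female (log2 fold change 0.95, standard error 0.187, adjusted p = 0.0237), so that here only the BFMI male stood apart. Tat, Gnmt and Gls2 also rose, with log2 fold changes of 1.44, 0.87 and 0.77. Got1, an aspartate aminotransferase, was called higher in the fit of all 10 libraries with a sex term (log2 fold change 1.32, adjusted p = 0.0237). It was at 180.3, 289.8 and 335 CPM against 109 and 289.8 CPM, so that the BFMI female lay within the range of matBFMI. The sex term of Got1 in that fit was a log2 difference of 1.47, higher in females. The log2 fold change of Got1 was 0.42 in the 5 libraries with no sex term, and 1.29 with that term, with no call in either. The count was 16 by DESeq2, 2 without matBFMI 2 or matBFMI 3 and 0 without the BFMI male. In bile acid metabolism, Cyp7a1, the rate-limiting enzyme of bile acid synthesis, was at 105, 57.8 and 142 CPM against 34.9 and 53.003 CPM (log2 fold change 1.69, standard error 0.379, adjusted p = 0.0377). The bile salt export pump Abcb11 was at 590.03, 724 and 680.1 CPM in matBFMI and 332 and 460.2 CPM in BFMI (log2 fold change 0.91, adjusted p = 0.0151), and the phospholipid flippase Abcb4 was at 347, 310.4 and 314 CPM and 608 and 406 CPM (log2 fold change -0.82, adjusted p = 0.0168). These 3 were the calls among 25 genes of that list (8% higher and 4% lower). None held without the BFMI male, with log2 fold changes of 2.19 for Cyp7a1, 0.66 for Abcb11 and -0.56 for Abcb4.

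Acute phase genes were lower in matBFMI. Of 39 genes of the acute phase and inflammatory signalling, 11 were lower and 1 higher (28.2% lower where 1.84% of all autosomal genes were), and the median log2 fold change was -0.38. Saa1 and Saa2 encode serum amyloid A. Saa2 was at 5.36, 3.32 and 3.50 CPM in matBFMI, 53.02 CPM in the BFMI male and 14.98 CPM in the BFMI female (log2 fold change -3.46, standard error 0.321, adjusted p = 0.000558). Saa1 was at 12.5, 14.3 and 8.10 CPM in matBFMI, 91.3 CPM in the BFMI male and 52.98 CPM in the BFMI female (log2 fold change -3.13, standard error 0.401, adjusted p = 0.00345). In both genes the BFMI male was highest of all libraries, and the B6N male, with 48.4 CPM of Saa1, came close to the BFMI female. Lbp, which binds lipopolysaccharide, was at 96.3, 101 and 88.5 CPM in matBFMI, 234 CPM in the BFMI male and 237 CPM in the BFMI female (log2 fold change -1.24, standard error 0.121, adjusted p = 0.000717), and here both BFMI animals were alike. Serpina3n, a protease inhibitor, fell by 0.71 on the log2 scale, and Saa3, Cd14, Il1rn, Orm3, Mt2 and Serpina3c fell by 0.87 to 3.32. Lcn2, described above, completes the 11. The gene that rose was Nnmt, which is no acute phase protein but an enzyme placed in the list for its response to cytokines. None of these calls held without the BFMI male, when Il1r1 and Nlrp12 of the list were called instead and the log2 fold changes of Lcn2, Saa1 and Lbp were -2.32, -3.61 and -1.08.

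Interferon response genes were lower too. Of 47 genes 10 were lower and 0 higher (21.3% lower, where 1.84% of all autosomal genes were). The median log2 fold change was -0.46, and 44 had a negative value. Ly6a, the stem cell antigen Sca-1, was at 5.42, 3.04 and 4.23 CPM in matBFMI, 53.02 CPM in the BFMI male and 13.5 CPM in the BFMI female (log2 fold change -3.19, standard error 0.449, adjusted p = 0.00567). Ly6e, of the same family, was at 56.6, 49.7 and 68.1 CPM in matBFMI, 251 CPM in the BFMI male and 136 CPM in the BFMI female (log2 fold change -1.80, standard error 0.274, adjusted p = 0.00764). In both genes the BFMI male was far above the BFMI female. Oas1a and Oas1g encode synthetases that sense double-stranded RNA, and they had the opposite order. Oas1a was at 2.89, 1.69 and 2.26 CPM in matBFMI against 4.58 and 6.54 CPM in the BFMI male and female (log2 fold change -1.05, adjusted p = 0.0319). Oas1g was at 1.02, 0.667 and 0.992 CPM against 2.53 and 2.77 CPM (log2 fold change -1.42, adjusted p = 0.0212), and its reads may be shared with its near-identical neighbours. Ifi44, Cmpk2, Lgals3bp, Mx2, Oas2 and Gbp4 were the other genes called, with log2 fold changes between -1.45 for Ifi44 and -0.74 for Lgals3bp. No gene of the 10 was called without the BFMI male, when the log2 fold changes of Ly6a, Ly6e and Oas1a were -1.13, -0.71 and -1.17, and without matBFMI 2 or 3 the count was 3 or 2.

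Promoters of the interferon list often held a known motif. Of the 16999 genes, 11256 (66.2%) had a promoter in the RefSeq table of build GRCm38.p6, and the 250 bases before the start furthest upstream were searched on both strands. The core of the interferon-stimulated response element, searched as GAAA repeated after 2 bases of any kind, was found before 18 of 32 genes of the interferon list (56.2%) and before 317 of all 11256 (2.82%). Of the 5 called members with a promoter in the table, 2 held it, Oas1a and Oas1g. Their sequences are shown because both carry 2 overlapping copies of the element, close to the start, in a stretch that the paralogs share. Both are read 5′ to 3′ on the minus strand, with the matches in capitals, Oas1a at chr5:120907526-120907775 and Oas1g at chr5:120887614-120887863.
Oas1a: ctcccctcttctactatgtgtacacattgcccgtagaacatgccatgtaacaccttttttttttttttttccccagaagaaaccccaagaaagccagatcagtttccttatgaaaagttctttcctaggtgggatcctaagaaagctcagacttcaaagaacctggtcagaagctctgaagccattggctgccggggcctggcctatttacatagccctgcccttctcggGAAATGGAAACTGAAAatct
Oas1g: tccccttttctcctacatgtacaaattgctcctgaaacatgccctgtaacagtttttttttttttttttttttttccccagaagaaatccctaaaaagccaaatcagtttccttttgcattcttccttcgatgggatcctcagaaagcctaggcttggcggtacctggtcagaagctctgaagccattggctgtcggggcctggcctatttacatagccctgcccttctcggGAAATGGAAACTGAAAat
The matches began 20 and 14 bases before the start in Oas1a, and 18 and 12 bases before it in Oas1g. A match describes letters in this window and does not show binding.

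**Figure D3:**
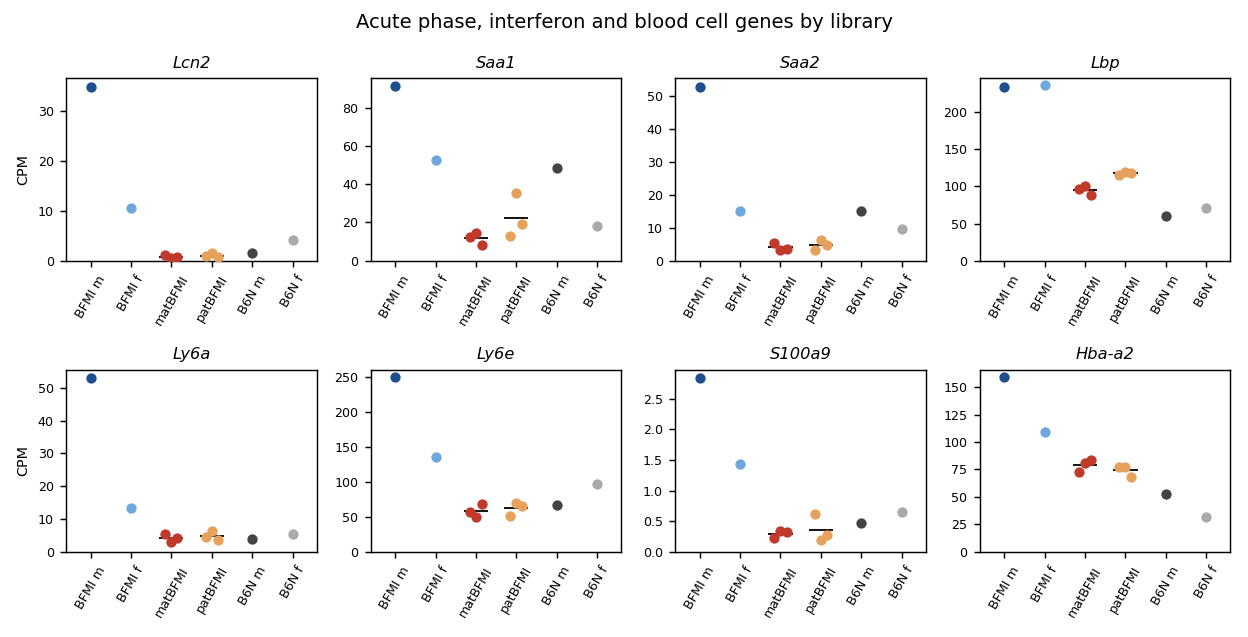
Expression in CPM (vertical axes, starting at 0) of 8 acute phase, interferon, neutrophil and haemoglobin genes in each of the 10 libraries, with points for single animals and black lines for the means of 3 F1 males. The BFMI male is the highest library for Lcn2, Saa1, Saa2, Ly6a, Ly6e, S100a9 and Hba-a2, and both BFMI animals lie together for Lbp.

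Among markers of macrophages, neutrophils and erythroid cells all calls were lower in matBFMI. In bulk liver, fewer cells of a type and less RNA per cell cannot be told apart. Of 19 markers of Kupffer cells and macrophages 4 were lower (21.1% where 1.84% of all autosomal genes were), with a median log2 fold change of -0.43. The 19 summed to 275 to 310.1 CPM in matBFMI, 363 CPM in the BFMI male and 405 CPM in the BFMI female. Marco, a scavenger receptor, was at 0.857, 1.15 and 0.524 CPM in matBFMI and 4.29 and 7.40 CPM in BFMI (log2 fold change -3.13, adjusted p = 0.0237), and the B6N male had 22.7 CPM. Ccr2, the receptor of recruited monocytes, was at 1.90, 1.76 and 1.63 CPM against 10.7 and 2.66 CPM (log2 fold change -2.21, adjusted p = 0.0105), with only the BFMI male apart. Clec4f, which defines Kupffer cells, was at 73.7, 61.2 and 68.3 CPM and 68.99 and 100.3 CPM and did not pass (log2 fold change -0.07, adjusted p = 0.857). For neutrophils 3 of 6 tested markers were lower (50%). S100a9, among them, was at 0.223, 0.342 and 0.318 CPM in matBFMI and 2.84 and 1.43 CPM in the BFMI male and female (log2 fold change -2.99, adjusted p = 0.00983). These are levels at which genes as a whole were slightly lower in matBFMI, with median log2 fold changes of -0.19 under 1 CPM and -0.04 at 1 to 5 CPM. For erythroid cells 4 of 9 were lower (44.4%), all of them globin genes. Hba-a2, of alpha globin, was at 72.2, 80.9 and 83.4 CPM in matBFMI, 159.5 CPM in the BFMI male and 109.5 CPM in the BFMI female (log2 fold change -1.06, adjusted p = 0.00249), and its reads may be shared with the near-identical Hba-a1. The summed erythroid level was 438 to 489 CPM in matBFMI and 835 and 697 CPM in the BFMI male and female. Summed neutrophil markers reached 1.43 to 1.81 CPM in matBFMI and 8.70 and 4.12 CPM in the BFMI male and female, and no marker of any list was at 0 in all 5 libraries. The part of these cells in the lower acute phase and interferon genes was not tested.

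Among the other cell types, 3 of 9 cholangiocyte markers were lower (33.3%, where 1.84% of all autosomal genes were). Sox9 and Spp1 were among these, and Spp1 was at 21.9, 18.6 and 20.7 CPM in matBFMI and 50.6 and 24.9 CPM in the BFMI male and female (log2 fold change -1.06, adjusted p = 0.0259). The bile duct keratin Krt19, at 0.782, 0.718 and 1.23 CPM and 1.06 and 0.703 CPM, did not pass (log2 fold change 0.03, adjusted p = 0.980). Of 17 lymphocyte markers Ptprc, the pan-leukocyte antigen, was lower and Ighm, the heavy chain of immunoglobulin M, higher (5.88% in each direction). Ptprc was at 12.998, 9.90 and 10.1 CPM in matBFMI and 20.8 and 20.6 CPM in BFMI (log2 fold change -0.85, adjusted p = 0.0182), and Ighm at 12.6, 19.4 and 29.8 CPM and 3.42 and 5.96 CPM (log2 fold change 2.21, adjusted p = 0.0266). Of 17 stellate cell markers only Rgs5 was called, lower by 0.65 on the log2 scale, and of 14 endothelial markers none was, with 5 higher and 1 lower at an unadjusted p under 0.05 and 1 higher by DESeq2. The fat cell gene Fabp4 was the call among 3 adipocyte markers tested, and the pancreatic list had 1 tested gene and no call. Of 12 hepatocyte markers Tat and Cps1 were higher (16.7%, where 2.07% of all autosomal genes were). The median log2 fold change of the 12 was 0.15. Of all marker calls Marco alone held without the BFMI male. The call of Marco ended without matBFMI 1, 2 or 3, with log2 fold changes of -3.14, -3.42 and -2.88, and on both RPKM scales. Of 34 genes of the cell cycle and mitosis 5 were lower (14.7%, where 1.84% of all autosomal genes were). The inhibitor Cdkn1a was among them, and the median log2 fold change over the list was -0.70. The 34 summed to 76.3 to 90.1 CPM in matBFMI, 120.04 CPM in the BFMI male and 97.6 CPM in the BFMI female. Ccnb2, a mitotic cyclin, had 0.317, 0.256 and 0.299 CPM in matBFMI and 1.24 and 0.606 CPM in the BFMI male and female (log2 fold change -2.03, adjusted p = 0.00982). At under 2 CPM, all called genes of this list but Cdkn1a and Cenpf lie in the range of weakly expressed genes. The median log2 fold change there was -0.19 under 1 CPM and -0.04 at 1 to 5 CPM.

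Clock genes were called in both directions. Of 23 genes 7 were higher and 3 lower (30.4% and 13%, where 2.07% and 1.84% of all autosomal genes were). The median log2 fold change was 0.27. Several genes that Arntl and Clock drive were higher. Per3, a period gene at chr4:151003652-151044665 on the minus strand, was at 31.3, 23.6 and 38.3 CPM in matBFMI, 3.52 CPM in the BFMI male and 8.46 CPM in the BFMI female (log2 fold change 2.93, standard error 0.336, adjusted p = 0.00199). Per2 was at 30.3, 23.3 and 25.02 CPM against 10.7 and 7.19 CPM (log2 fold change 1.38, standard error 0.172, adjusted p = 0.00304). Dbp and Tef encode related PAR bZIP transcription factors, and Dbp was at 31.4, 31.1 and 58.1 CPM in matBFMI, 2.93 CPM in the BFMI male and 10.2 CPM in the BFMI female (log2 fold change 3.01, standard error 0.612, adjusted p = 0.0266). Tef was at 157, 129 and 173 CPM against 41.6 and 69.3 CPM (log2 fold change 1.66, standard error 0.238, adjusted p = 0.00610), and Nr1d2, a repressor of the clock, at 131, 122 and 124 CPM against 60.6 and 85.2 CPM (log2 fold change 0.95, adjusted p = 0.00805). In each of these 5 genes all matBFMI males lay above both BFMI animals. Ciart and Usp2, further rhythmic genes, rose by 3.36 and 2.39 on the log2 scale (adjusted p = 0.0463 and 0.0282). Arntl, Npas2 and Clock, of the positive arm, were lower. Arntl was at 5.85, 8.27 and 4.30 CPM in matBFMI, 23.6 CPM in the BFMI male and 20.7 CPM in the BFMI female (log2 fold change -1.68, standard error 0.331, adjusted p = 0.0238). Npas2 was at 0.335, 0.496 and 0.187 CPM against 4.32 and 2.64 CPM (log2 fold change -3.31, standard error 0.472, adjusted p = 0.00594). Clock was at 58.6, 63.5 and 46.4 CPM against 87.7 and 73.3 CPM (log2 fold change -0.66, adjusted p = 0.0438). The hour of dissection is not given in the sources used here, and its part in these differences was not tested. None of the 10 was called without the BFMI male, with log2 fold changes of 2.38 for Per3 and -0.72 for Arntl, and without matBFMI 3 the fit called 4 higher and 1 lower.

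The promoters of Per3 and Ciart hold known clock elements. The D-box, to which Dbp and Tef bind, was searched as TTATGNAA and found before 3 of 19 clock genes (15.8%) and 2.11% of all promoters, and the E-box CACGTG, to which Clock and Arntl bind, before 5 of 19 (26.3%) and 7.92%. Among the 9 called clock genes with a promoter in the table, 1 held a D-box and 2 held an E-box. Per3 is shown because it rose most among the period genes and has 2 D-boxes, and Ciart because it has 3 E-boxes. Both are on the minus strand, Per3 at chr4:151044666-151044915 and Ciart at chr3:95882229-95882478, with the matches in capitals.
Per3: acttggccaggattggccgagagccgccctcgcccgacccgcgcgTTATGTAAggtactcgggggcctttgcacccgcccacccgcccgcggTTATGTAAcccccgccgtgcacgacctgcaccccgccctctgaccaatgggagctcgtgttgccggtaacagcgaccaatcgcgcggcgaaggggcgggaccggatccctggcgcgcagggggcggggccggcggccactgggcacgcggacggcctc
Ciart: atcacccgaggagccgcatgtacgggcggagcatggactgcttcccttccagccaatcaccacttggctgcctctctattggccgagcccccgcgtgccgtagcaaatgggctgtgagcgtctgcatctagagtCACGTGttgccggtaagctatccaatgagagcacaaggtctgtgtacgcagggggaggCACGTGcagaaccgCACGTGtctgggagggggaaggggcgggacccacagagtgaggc
The D-boxes of Per3 began 205 and 158 bases before the start, and the E-boxes of Ciart 116, 58 and 44 bases before it. The sterol response element TCACNCCAC was found before 1 of 14 genes of the cholesterol list and 1.06% of all promoters, and before none of its 4 called members in the table.

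**Figure D4:**
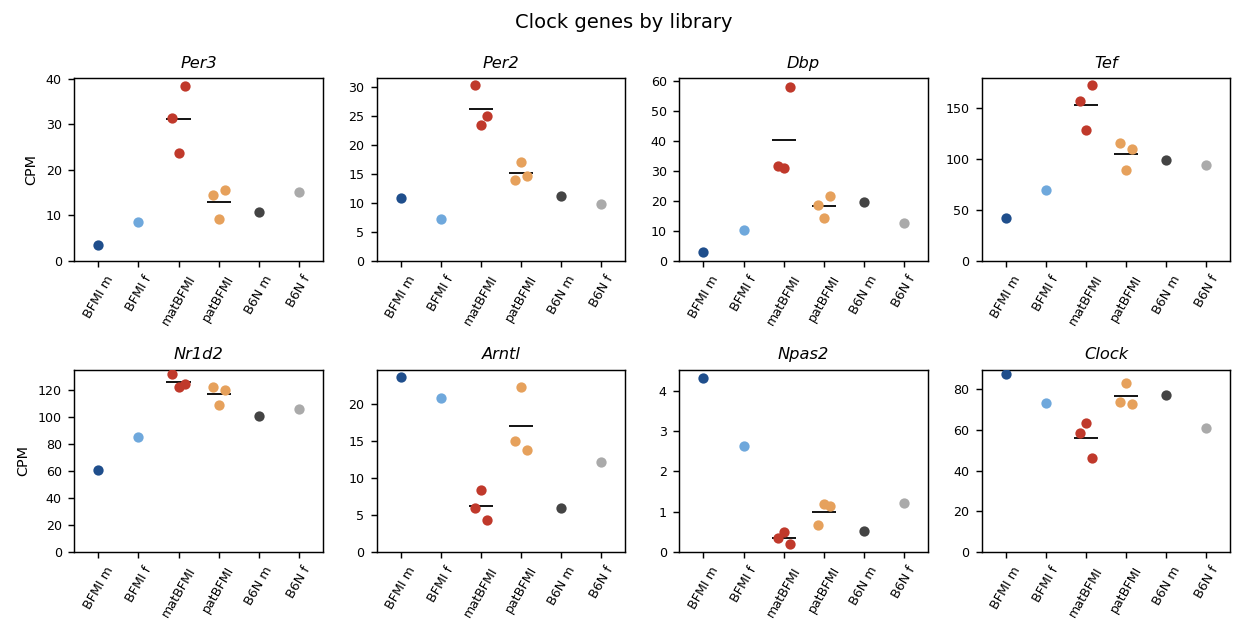
Expression in CPM (vertical axes, starting at 0) of 8 clock genes in each of the 10 libraries, with points for single animals and black lines for the means of 3 F1 males. Per3, Per2, Dbp, Tef and Nr1d2 are higher and Arntl, Npas2 and Clock lower in the matBFMI males than in both BFMI animals.

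Cytochromes P450 of drug metabolism were called in both directions. Of 44 Cyp2 and Cyp3 genes 3 were higher and 7 lower, and the median log2 fold change was -0.08. These were 6.82% and 15.9%, where 2.07% and 1.84% of all autosomal genes were called. Cyp2b9 was at 2.90, 2.12 and 1.57 CPM in matBFMI, 89.998 CPM in the BFMI male and 352 CPM in the BFMI female (log2 fold change -4.54, standard error 1.04, adjusted p = 0.0408). In B6N the male had 0.974 CPM and the female 336 CPM, so that the BFMI male held a level of this female-biased gene that neither the B6N male nor any F1 male reached. Cyp2b13, its neighbour and also female-biased, was at 0.186, 0.137 and 0.187 CPM in matBFMI against 5.995 and 29.01 CPM (log2 fold change -4.44, adjusted p = 0.0314), and 0.169 and 41.4 CPM in the B6N male and female. Leaving out the BFMI male turned the log2 fold changes of Cyp2b9 and Cyp2b13 to 1.11 and 0.52, with no call. Cyp3a59 differed without such a sex difference, with 29.6, 26.7 and 25.2 CPM in matBFMI, 75.2 CPM in the BFMI male and 79.4 CPM in the BFMI female (log2 fold change -1.57, standard error 0.127, adjusted p = 0.000279). Cyp2a22 fell to 35.8, 27.1 and 26.7 CPM from 71.5 and 70.3 CPM (log2 fold change -1.19, adjusted p = 0.00346), and Cyp2c39 to 61.02, 48.9 and 80.5 CPM from 227 and 468 CPM (log2 fold change -1.55, adjusted p = 0.0238). Cyp3a25 and Cyp3a16 fell as well, whereas Cyp2r1 rose with a log2 fold change of 0.86. Cyp2c68 and Cyp2c70 were called higher in the fit with a sex term, and in both the BFMI female was not below all matBFMI males. Cyp2c68 was at 199, 184 and 164 CPM against 81.1 and 167 CPM (log2 fold change 1.26, adjusted p = 0.00641), and Cyp2c70 at 388, 349.98 and 373 CPM against 182 and 423 CPM (log2 fold change 1.02, adjusted p = 0.0326). In the 5 libraries with no sex term their log2 fold changes were 0.55 and 0.29. Of the 10 calls that of Cyp3a59 alone held without the BFMI male. These genes belong to families of close paralogs, between which reads can be shared. Of 23 female-biased liver genes 1 was higher and 4 lower (4.35% and 17.4%). None of 20 male-biased genes passed in edgeR, with 1 higher and 2 lower at an unadjusted p under 0.05 and 1 higher and 1 lower by DESeq2.

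On the growth hormone axis, 3 of 22 genes were higher and 1 lower (13.6% and 4.55%, where 2.07% and 1.84% of all autosomal genes were). Cish, a target of STAT5 that restrains cytokine signalling, was at 10.1, 4.67 and 5.88 CPM in matBFMI, 1.05 CPM in the BFMI male and 1.27 CPM in the BFMI female (log2 fold change 2.85, standard error 0.512, adjusted p = 0.0163). It was below 3 CPM in all 7 other livers. Igfbp2, a binding protein of insulin-like growth factors, was at 83.3, 85.3 and 82.5 CPM against 14.1 and 30.6 CPM (log2 fold change 2.22, standard error 0.400, adjusted p = 0.0166), and at 266 CPM in the B6N male and 241 CPM in the B6N female. Onecut1 rose with a log2 fold change of 2.13, and Stat5a fell by 0.77 on the log2 scale. These 4 calls ended without the BFMI male, with log2 fold changes of 3.32 for Cish, 2.12 for Onecut1, 1.31 for Igfbp2 and -0.55 for Stat5a.

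For some genes the level in matBFMI lay between the levels of both parental strains. Rpl21, a ribosomal protein gene, was at 14.8, 16.1 and 15.7 CPM in matBFMI, 2.93 CPM in the BFMI male and 3.73 CPM in the BFMI female (log2 fold change 2.30, standard error 0.135, adjusted p = 6.05e-05), and at 15.5, 15.5 and 15.3 CPM in patBFMI, with 28.6 CPM in the B6N male and 28.2 CPM in the B6N female. Rps18 and Rpl34 had the same order, and rose by 1.74 and 2.29 on the log2 scale (adjusted p = 0.000336 and 8.16e-05). These 3 were the ribosomal protein genes whose calls held without the BFMI male, of 7 called among 73, and 66 of the 73 had positive values around a median of 0.17. All 7 calls were higher (9.59%, where 2.07% of all autosomal genes were). Ribosomal protein genes share reads with many processed pseudogenes, so that these values are uncertain. C4b, a complement component, was at 773, 727 and 921 CPM in matBFMI, 258 CPM in the BFMI male and 262 CPM in the BFMI female (log2 fold change 1.57, standard error 0.172, adjusted p = 0.00153), with 1507 CPM in the B6N male and 1251 CPM in the B6N female. H2-Ea-ps, at chr17:34341959-34344645 in the major histocompatibility complex, was at 8.27, 7.93 and 5.88 CPM in matBFMI, 19.01 CPM in the BFMI male and 23.3 CPM in the BFMI female (log2 fold change -1.38, standard error 0.176, adjusted p = 0.00345), and near 0.1 CPM in both B6N animals. Serpina3c followed this order, with 116, 115 and 128 CPM in matBFMI, 204 and 180.4 CPM in BFMI and 1.01 CPM in the B6N male and 0.574 CPM in the B6N female (log2 fold change -0.87, adjusted p = 0.0242). Of 27 genes of antigen presentation 3 were lower, H2-Ea-ps, H2-Q2 and H2-T24 (11.1%, where 1.84% of all autosomal genes were). Of 36 genes of complement and coagulation C4b and F12 were higher (5.56%). None of these 5 calls nor that of Serpina3c held without the BFMI male, when the log2 fold changes of C4b, H2-Ea-ps and Serpina3c were 1.36, -1.53 and -1.40.

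Peg3 was lower in matBFMI. Peg3, an imprinted gene that is expressed from the paternal copy, lies at chr7:6703892-6730431 on the minus strand. It was at 6.48, 7.23 and 4.68 CPM in matBFMI, whose father was B6N, 21.1 CPM in the BFMI male and 22.6 CPM in the BFMI female (log2 fold change -1.61, standard error 0.325, adjusted p = 0.0261). In patBFMI, whose father was BFMI, it was at 32.3, 16.1 and 33.4 CPM, and at 8.95 CPM in the B6N male and 16.3 CPM in the B6N female. The matBFMI values thus lay nearest to the B6N male, and those of 2 patBFMI males above all others, while the remaining patBFMI male had about the level of the B6N female. Peg3 was the call among 20 paternally expressed imprinted genes, with a median log2 fold change of -0.32, and 0 of 22 maternally expressed genes were called, where 4 were lower and 1 higher at an unadjusted p under 0.05, 1 lower by DESeq2 and 2 by limma-voom. The call of Peg3 ended without the BFMI male or any 1 matBFMI library, with log2 fold changes of -1.01, -1.65, -1.75 and -1.45.

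Of the genes that the study names, 75 were tested, and 12 were higher and 5 lower here. Beside those given above, Pparg, the nuclear receptor of fat storage, was at 3.41, 2.20 and 4.68 CPM in matBFMI and 0.570 and 0.293 CPM in the BFMI male and female (log2 fold change 2.61, standard error 0.356, adjusted p = 0.00461). Coq10b, which acts in coenzyme Q function, was at 32.8, 30.3 and 29.4 CPM in matBFMI, 10.6 CPM in the BFMI male and 11.02 CPM in the BFMI female (log2 fold change 1.52, standard error 0.133, adjusted p = 0.000402), and its call held without the BFMI male. Acsl3, an acyl-CoA synthetase, rose as well (log2 fold change 1.12, adjusted p = 0.0470). Its call ended with scaling by size factors or by library size, and without any 1 matBFMI library. In the 5 libraries with no sex term its log2 fold change was 0.59. St5 was at 18.2, 20.6 and 18.4 CPM against 53.8 and 30.1 CPM (log2 fold change -1.37, adjusted p = 0.00236), and Slc45a3, a membrane transporter, at 17.3, 17.7 and 17.2 CPM against 38.6 and 27.000 CPM (log2 fold change -1.02, adjusted p = 0.00440). The calls of Pparg, St5 and Slc45a3 ended without the BFMI male, with log2 fold changes of 2.71, -0.97 and -0.61. On log2(RPKM + 1) Pparg was not called, with a log2 fold change of 0.25.

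Other lists held few calls. In the NRF2 list 10.5% of genes were lower, where 1.84% of all autosomal genes were. Among conjugation enzymes 2.27% were called in each direction, near the 2.07% and 1.84% of all autosomal genes. The share was 3.85% higher for glucose metabolism, and 3.45% in each direction for apolipoproteins. Of 19 genes of the NRF2 antioxidant response Gclc and Slc7a11 were lower, and Gclc, of glutathione synthesis, was at 235, 295 and 226 CPM in matBFMI and 523 and 335 CPM in BFMI (log2 fold change -1.004, adjusted p = 0.0134). Among 44 conjugation enzymes Ugt1a9 fell and Gstt3 was called higher in the fit with a sex term, with 27.7, 37.1 and 38.8 CPM in matBFMI, 13.9 CPM in the BFMI male and 47.7 CPM in the BFMI female (log2 fold change 1.32, adjusted p = 0.00302). The BFMI female was thus above every matBFMI male, and with the 5 libraries and no sex term the log2 fold change was 0.17. Pfkfb3 rose among 26 genes of glucose metabolism, and Apoa4 fell among 29 apolipoprotein genes, of which 1 rose. The calls of Gclc, Slc7a11, Ugt1a9, Gstt3, Pfkfb3 and Apoa4 ended without the BFMI male, with log2 fold changes of -0.85, -1.23, -0.51, 1.34, 2.99 and -1.48. None of 21 major urinary protein genes, 29 genes of the unfolded protein response, 72 nuclear genes of the respiratory chain and 16 BBSome genes passed. At an unadjusted p under 0.05 these lists held 1, 0, 0 and 0 lower and 0, 0, 3 and 2 higher genes, and DESeq2 called 1 gene lower in the first and 1 higher in the third, and limma-voom 1 higher in the last.

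**Figure D5:**
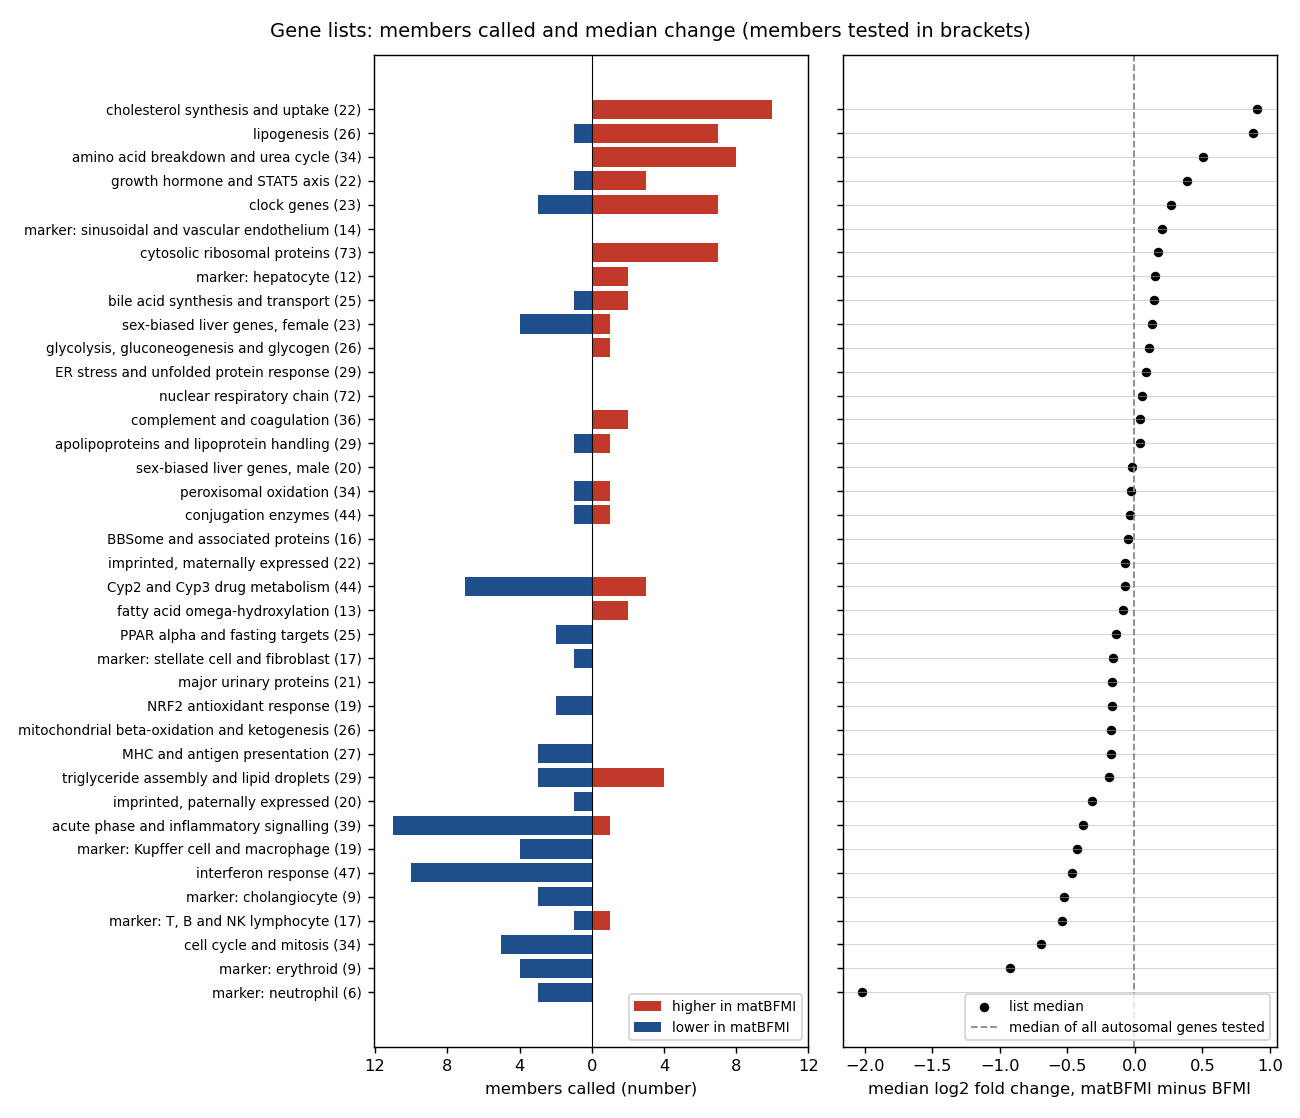
Members called (left, number of genes, red higher and blue lower in matBFMI) and median log2 fold change (right, points) for the gene lists with at least 6 tested members, with the number tested in brackets and the median of all autosomal genes as a dashed line. Cholesterol synthesis and lipogenesis stand at the top with medians of 0.91 and 0.88, and neutrophil and erythroid markers at the bottom with -2.02 and -0.93.

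Genes on the maternal X chromosome, which all animals of the comparison took from BFMI, were called in 10 of 711 cases (1.41%). Of autosomal genes 3.91% were called. Of the X-linked calls, 5 were higher and 5 lower. Of 20 genes of the shared mitochondrial genome 5 were lower (25%, where 1.84% of autosomal genes were). Of these, mt-Nd1, a subunit of complex I, was at 673, 624 and 556 CPM in matBFMI, 1399.5 CPM in the BFMI male and 768 CPM in the BFMI female (log2 fold change -0.98, adjusted p = 0.0222), and mt-Cytb, of complex III, at 1284, 1055 and 789 CPM against 2846 and 1285 CPM (log2 fold change -1.17, adjusted p = 0.0476). In both genes the BFMI male was the highest of the 5 libraries, and the BFMI female lay nearer to matBFMI. Calls off the autosomes were not followed in the fits that left out a library.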

How the data were processed

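Liver RNA of 10 mice was sequenced after removal of ribosomal RNA, as the protocol states, although the molecule field reads polyA RNA. The deposited tables hold raw counts of reads for each Ensembl identifier and RPKM that the authors derived following quantile normalization. Tools listed in the submitters' notes are Trimmomatic 0.32, TopHat2 2.10, Bowtie2 2.2.6, Picard 1.99 and build mm10, while the paper names BWA. No sample record matched 3 columns, which were not used. Symbols and positions came from GENCODE M21 (GRCm38), in which 40254 of 41388 identifiers were found. The counts were scaled by TMM and fitted with edgeR 4.0.16 in R 4.3.3 (quasi-likelihood) over all 10 libraries, with terms for group and sex. Tested genes reached 10 counts in 2 or more of the 5 libraries, 17891 on all chromosomes, p was adjusted by Benjamini-Hochberg over all of them, and the threshold was 0.05. The biological coefficient of variation was 17.0%, with 5 residual degrees of freedom. The sample records do not say that the animals are unrelated, so that p-values measure the spread between these libraries. BFMI and B6N were each represented by a male and a female, so that BFMI had no replicate of the same sex. The spread therefore came mostly from the F1 males within matBFMI and patBFMI. The inbred animals added only how far the sex difference varied between BFMI and B6N. The spread among BFMI animals of the same sex was not measured.

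The members and the 40 gene lists were chosen with earlier results of these data known, and no set test was run. Named genes are up to 12 rising and 12 falling most among called protein-coding genes with separate libraries and at least 5 CPM in the higher group, up to 4 list members of lowest p, called members of the lists, and genes the study names where called. Alb, Clec4f, Krt19, Il1r1, Nlrp12, the genes off the autosomes and the uncalled genes of the closing section were chosen after their values were seen. Predicted genes were counted and not named, and some genes that the rule selects are not reported here. Of 1038 listed genes 14 were not in the tables. Alternatives were other scalings, DESeq2 1.42.0, limma 3.58.1 on counts and on log2(RPKM + 1) and log2(RPKM + 0.1), other filters, the 5 libraries alone and leaving out each library of the comparison or patBFMI 1. The pipeline was tested on simulated data. Promoters were read from RefSeq tables. Python 3.11.15 with numpy 2.4.6, pandas 2.3.3 and matplotlib 3.10.9 served for the rest.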

Additional observations from a re-analysis of the deposited data

How the results depend on the processing

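With DESeq2, 595 genes were higher. Without a filter on low counts 615 were higher and 881 lower. On log2(RPKM + 1) 78 were higher and 158 lower, and on log2(RPKM + 0.1) 56 and 47, with 46 and 49 of the 665 genes then of opposite sign. With the 5 libraries alone 532 genes were lower, and 599 with a sex term added, and limma-voom called 470 lower. Leaving out 1 library in turn, the count ranged from 33 (without the BFMI male) to 377 (without patBFMI 1) for genes higher and from 18 (without the BFMI male) to 441 (without the BFMI female) for genes lower. List members called numbered 130, and were 202 with DESeq2, 245 without the filter, 70 on log2(RPKM + 1), 43 on log2(RPKM + 0.1) and 16 to 143 without 1 library. Of the 24 genes with the largest changes 12 and 8 were called on the 2 RPKM scales, and 6 to 24 without 1 library. Genes called between females and males numbered 102, but 41 with the 5 libraries and 371 with DESeq2. Without the BFMI male the log2 fold changes of Cyp2b9 and Cyp2b13 turned to 1.11 and 0.52, and without the BFMI female they were -5.35 and -5.13. The cause of these shifts was not tested. The scaling by size factors and by library size left all 665 genes with the same sign and called 654 and 547 of them. With a mean CPM of at least 1 required, a setting chosen after seeing the data, 340 genes were higher and 332 lower. No paired analysis was possible because the BFMI libraries carry no offspring number. The strain is represented by 1 male and 1 female, so that a difference between BFMI and matBFMI cannot be told apart from a peculiarity of these 2 animals or of their lanes.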

Other observations

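Large differences did not always pass. Of the autosomal genes, 17 had an absolute log2 fold change of at least 2 with at least 20 CPM in the higher group and no call. Among them 13 predicted genes, 10 on chromosome 9 and 2 on chromosome 2, had log2 fold changes of -3.34 to -2.77 and adjusted p of 0.437 to 0.518. Their summed level was 15565 CPM in the BFMI male, 23156 CPM in the BFMI female, 5610, 202 and 76.6 CPM in matBFMI 1, 2 and 3, 28347, 512 and 277 CPM in patBFMI 1, 2 and 3, and 29016 and 37125 CPM in the B6N male and female. Within each F1 group, library 1 was far above the other libraries. The same 2 libraries had the most genes with 1 to 9 counts of their group, 10018 in matBFMI 1 and 14359 in patBFMI 1. In contrast A1bg, a plasma glycoprotein with a female bias, was at 2.48, 1.21 and 3.07 CPM in matBFMI, 16.1 CPM in the BFMI male and 406 CPM in the BFMI female (log2 fold change -2.55, adjusted p = 0.103). Plk3, a stress kinase, was at 41.5, 18.4 and 43.2 CPM in matBFMI and 11.6 and 6.72 CPM in the BFMI male and female (log2 fold change 2.07, adjusted p = 0.0636). The heat shock gene Hspa1b was at 26.8, 19.01 and 25.5 CPM against 5.31 and 2.34 CPM (log2 fold change 2.03, adjusted p = 0.190), and its reads may be shared with its close copy. Gm6166, the remaining gene, is a pseudogene.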
